A study of Arabidopsis thaliana with 16 samples.

Results

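Of the 14393 peaks in the 6 lists taken 2 h after flg22, 842 lay inside an exon or an intron of a gene model, by the authors' annotation of each peak, and these peaks are described here. Peaks annotated to promoters, transcript ends, untranslated regions or intergenic DNA were the other 13551. The study located WRKY18, WRKY33 and WRKY40, all transcription factors, on the genome by ChIP-seq, in which chromatin is precipitated with an antibody and its DNA is sequenced. The material was Arabidopsis thaliana Col-0 seedlings, 12 days old. There were 3 complementation lines, each carrying 1 factor with an HA tag (WRKY18-HA, WRKY33-HA and WRKY40-HA), and untagged wild type (WT), all precipitated with an anti-HA antibody. Seedlings were untreated (0 h) or were kept for 2 h in medium with 1 µM flg22, a bacterial flagellin peptide that triggers plant immunity, and each group had 2 biological replicates. The sources used here name neither the promoter of the tagged genes nor whether a line goes back to 1 transformant. A time of 0 h without treatment and 2 h with flg22 differ in both the peptide and the change of medium, and these cannot be told apart.

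WRKY proteins are plant transcription factors with a zinc-binding domain that recognises the W box, a short DNA motif found in many defence gene promoters. WRKY18 and WRKY40 are close relatives that can pair with each other, and WRKY33 belongs to another group of the family and is needed for resistance to necrotrophic fungi. Plant introns, the first intron above all, can carry sequences that raise or restrict transcription of their gene, and a peak there may also belong to a neighbouring or alternative start.

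The authors called peaks in each HA library against its WT counterpart (same time, same replicate). At 2 h the lists held 1653 to 3272 peaks, and replicate 2 had the longer list in each line. Exon and intron peaks had a median of 207 to 612 tags per list in the HA library against 14.5 to 19 in WT. The labels' protocols give 7 to 20 M reads a library, without single totals. A site without a listed peak was not called in that library, which does not show that the factor was absent. The peak score is the authors' own value, its scale is not stated in the file headers, and the lowest score of an exon or intron peak at 2 h was 9.99962.

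Introns held 715 of the 842 peaks (84.9%) and exons 127 (15.1%). The annotation gives each peak 1 class, while the members' median length was 426.5 to 544.5 bp per list, so a peak may span both. The first intron took 394 of the 715 intron peaks (55.1%, exact binomial 95% interval 51.4 to 58.8%), the second intron 161 and later introns 160. For 126 of these peaks the intron was the only one of its gene model. Among the exon peaks, 76 of 127 lay in the last exon, 49 in exon 1 and 40 in models with a single exon, which count under both. The 842 peaks fell in 318 host genes, meaning the gene whose model the annotation names. The intervals cover counting error only, and peaks of different libraries often mark the same place.

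The peaks lay well inside their genes. For 766 peaks the host was also the gene the authors assigned, and the midpoint of the peak lay a median of 1030 bp downstream of the start, with a middle range from 730.5 to 1544 bp. Of these, 92 lay within 500 bp of the start and 56 beyond 2000 bp. The medians of single lists ran from 969.5 to 1123.5 bp, and all 3 lists of replicate 1 (1049 to 1123.5 bp) lay above all 3 of replicate 2 (969.5 to 1023 bp). The upper quartile was 1353 to 1422 bp in the WRKY33-HA lists and 1535 to 1676 bp in the other 4, and peaks beyond 2000 bp made up 3.38% of these 207 peaks in WRKY33, 8.11% of 259 in WRKY18 and 9.33% of 300 in WRKY40, a difference that was not tested. Among these 766 peaks, the farthest from the host start lay 4399 bp away in WRKY18-HA, 4345 bp in WRKY40-HA and 2387 bp in WRKY33-HA. The other 76 peaks, assigned to another gene than the host, were left out of these distances. The distance is partly set by the annotation itself: 99.8% of the 7276 promoter peaks assigned to the gene they were annotated to lay between -1000 and 100 bp of a start, so a peak closer to a start than that was seldom left to the intron and exon classes.

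**Figure D1:**
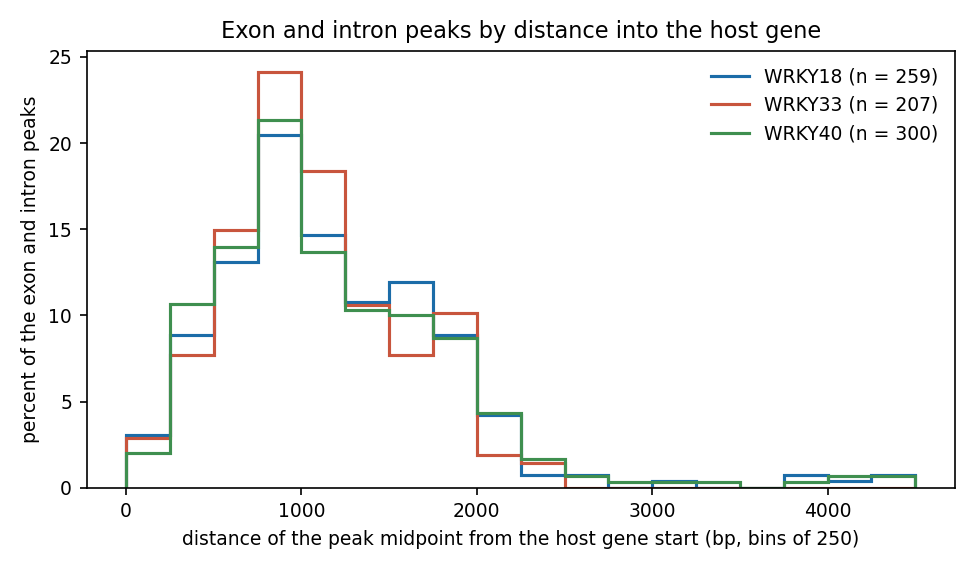
Percent of exon and intron peaks (vertical axis) by distance of the peak midpoint from the start of the host gene in bp, in bins of 250 bp, for the 2 h lists of each line with both replicates together. Only peaks whose host was also the assigned gene are drawn. Most of them lie under 2000 bp in each line, and 3.38% of WRKY33, 8.11% of WRKY18 and 9.33% of WRKY40 peaks lie beyond.

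Peaks present in both replicates of a line, overlapping by at least 1 bp and inside an exon or intron in both, made 78 reproducible sites for WRKY18, 56 for WRKY33 and 100 for WRKY40. These were 5.38% of the 1450, 4.53% of the 1237 and 6.03% of the 1658 reproducible sites of each line. At 3, 2 and 6 of them, in the same order, 1 replicate was annotated to an exon and the other to an intron. Merged over the lines, they formed 131 sites in 127 host genes, of which 109 lay in an intron and 59 of those in intron 1. Of the single peaks, 165 of 289 WRKY18 peaks (57.1%) were found in the other replicate, against 61.9% of WRKY18 peaks of all classes. For WRKY33 the count was 116 of 220 (52.7%), against 57.9%, and for WRKY40 it was 208 of 333 (62.5%), against 64.2%. All 3 shares were near those of the whole lists.

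The strongest exon and intron sites were those with the lowest mean rank percentile by score in both replicates. The site with the best mean over the 3 lines lay in intron 2 of 4 of PTR3 (AT5G46050), a peptide transporter gene, at chr5:18676771-18677737 (TAIR10). Its scores at 2 h were 39.6 and 50.2 in WRKY18-HA, 23.9 and 24.5 in WRKY33-HA, and 53.9 and 52.2 in WRKY40-HA, in the order of the replicates. In WRKY40-HA replicate 1 this was the best-ranked exon or intron peak of the list, with 1822 tags against 36 in WT. The peak was also listed at 0 h in WRKY18-HA, with scores of 14.4 and 35.0, and not at 0 h in the other lines.

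PBS3 (AT5G13320), which encodes an amido synthetase of salicylic acid synthesis, had a site in intron 1 of 4 at chr5:4267585-4268267, 376 bp from the start. Its scores at 2 h were 48.7 and 46.2 in WRKY18-HA, 13.3 and 12.1 in WRKY33-HA, and 42.3 and 47.2 in WRKY40-HA. WRKY18-HA and WRKY40-HA were both well above WRKY33-HA here, with no overlap of the replicates. ACA11 (AT3G57330), a calcium pump of the vacuolar membrane, had a site in intron 1 of 6 at chr3:21215080-21215984. Its scores were 37.5 and 58.0 in WRKY18-HA and 43.4 and 54.9 in WRKY40-HA, and 10.2 in replicate 1 of WRKY33-HA with none listed in replicate 2. PBS3 and ACA11, like AT1G76360 and AT5G21105 below, were among the 8 best sites by rank of WRKY18 and of WRKY40. That choice favours higher scores in these lines than in WRKY33-HA. Scores of different libraries are set side by side without a test, since the score's scaling to library depth is not known.

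The single best-scoring member of any list lay in intron 2 of 5 of AT1G76360, annotated as a putative protein kinase, at chr1:28644319-28645479. Its scores were 31.7 and 78.4 in WRKY18-HA and 36.3 and 96.9 in WRKY40-HA, and it was listed in neither WRKY33-HA library. Replicate 2 had the higher score in both lines, with 5045 tags against 46 in WT in WRKY40-HA. AT5G21105, an L-ascorbate oxidase gene, carried a site in its only intron at chr5:7174541-7175393. It scored 47.6 and 47.8 in WRKY18-HA and 32.2 and 46.7 in WRKY40-HA, and was again listed in neither WRKY33-HA library. AT3G06130, a gene for a protein with a heavy-metal-associated domain, held the strongest exon site of WRKY40, in exon 3 of 5, with scores of 34.8 and 60.5, and 21.7 and 44.9 in WRKY18-HA.

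Further leading sites were held by all lines. LBD11 (AT2G28500), a LOB-domain transcription factor gene, had a site in its only intron at chr2:12187011-12187679 that scored 24.5 and 67.2 in WRKY18-HA, 15.8 and 21.4 in WRKY33-HA, and 38.6 and 59.1 in WRKY40-HA. AT3G27150, an F-box and kelch-repeat gene, scored 43.0 and 37.8 in WRKY18-HA, 30.6 and 27.7 in WRKY33-HA, and 29.9 and 50 in WRKY40-HA. Its site lay close to the start, at 250 bp, and the peak of WRKY40-HA replicate 1 was annotated to the promoter instead, so this is a site at the border of the classes. AT1G66880 had a site in intron 4 of 8 with scores of 27.2 and 46.4 in WRKY18-HA, 13.4 and 27.9 in WRKY33-HA, and 41.1 and 67.7 in WRKY40-HA, and a weaker one in intron 1. The authors assigned both to neighbouring genes, the first to AT1G66890 at -5086 bp.

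Other sites ranked high in WRKY33-HA. TOPP1 (AT2G29400), which encodes a type 1 protein phosphatase, had the best mean rank of the WRKY33 members, in intron 1 of 3 at chr2:12614573-12615008. Its scores were 29.7 and 34.1 in WRKY33-HA, against 14.0 and 12.9 in WRKY18-HA and 15.4 and 20.2 in WRKY40-HA. AT1G14780, a gene for a perforin-domain protein, scored 28.8 and 30.8 in WRKY33-HA, 18.7 and 15.5 in WRKY18-HA, and 13.4 and 18.6 in WRKY40-HA. At both genes the WRKY33-HA scores exceeded all 4 scores of the other lines. Both genes were chosen by their WRKY33 rank, which favours this order. At PTR3 and AT3G27150, also among the 8 best WRKY33 members, both WRKY18-HA scores were above both WRKY33-HA scores. The median score of all exon and intron peaks was lowest in the WRKY33-HA list of each replicate. MYB46 (AT5G12870), a regulator of secondary cell wall formation, scored 21.6 and 25.3 in WRKY33-HA, in its only intron, and was listed in replicate 2 only of WRKY18-HA (12.6) and WRKY40-HA (15.6). AT5G53110, AT3G23530 and AT1G05370 completed the 8 best WRKY33 members, with scores between 17.0 and 39.2 in WRKY33-HA.

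**Figure D2:**
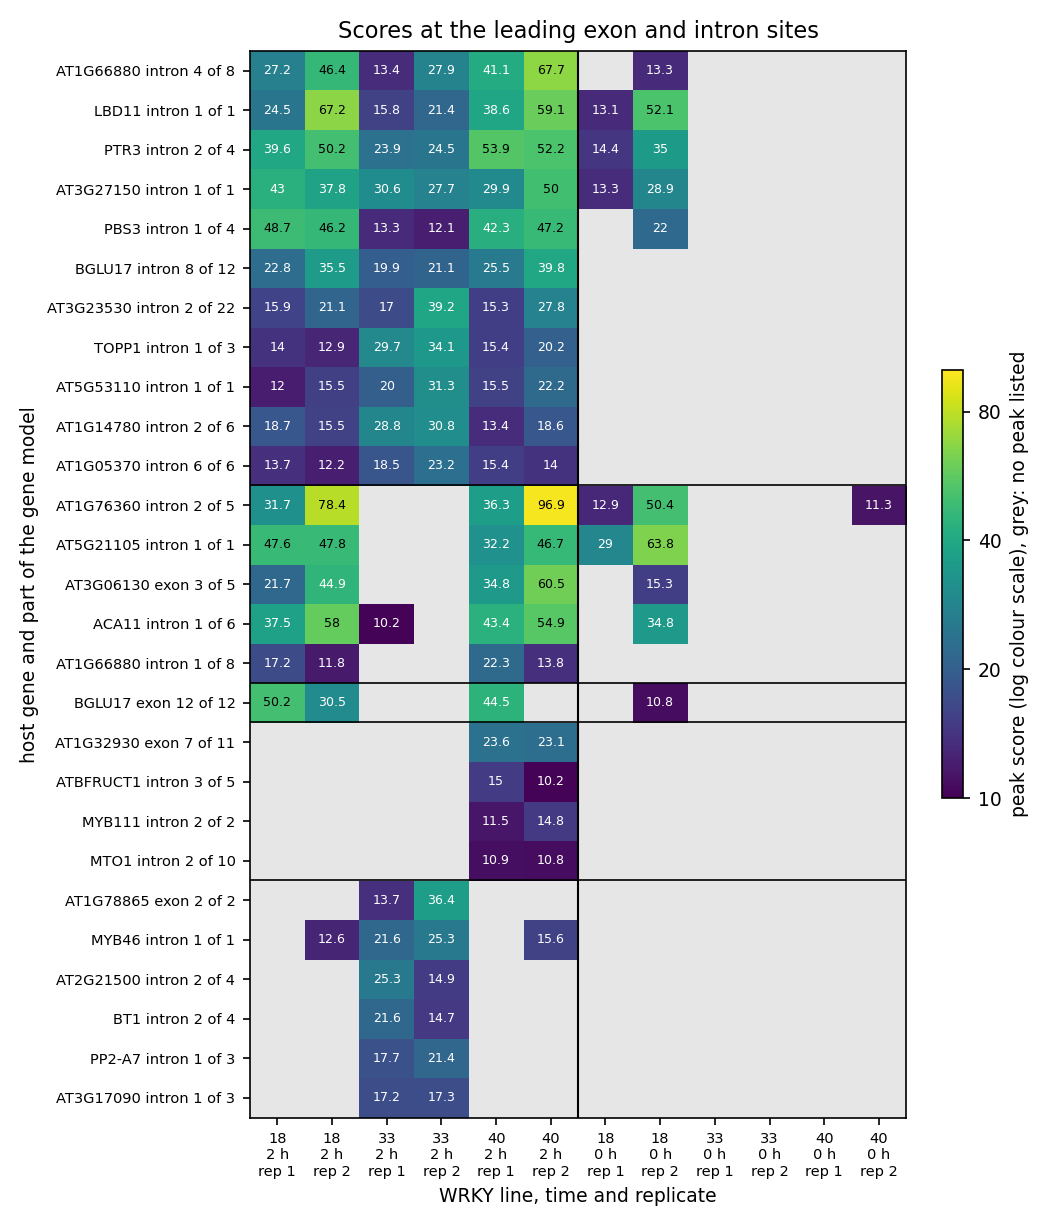
Peak scores (colour on a log scale, values printed) at 27 leading exon and intron sites, named by host gene and part of the gene model, in the 6 libraries at 2 h (left of the line) and the 6 at 0 h (right). Grey marks no listed peak, and the row blocks are sites of all lines, of WRKY18 and WRKY40, of WRKY18 alone, of WRKY40 alone and of WRKY33 alone. The 0 h columns are filled for WRKY18-HA at some sites and at 1 site for WRKY40-HA.

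The lines shared their exon and intron sites unevenly. Counting a reproducible site of any class in the partner line, 73 of the 78 WRKY18 members (93.6%) overlapped a WRKY40 site and 28 (35.9%) a WRKY33 site. The same shares for the other WRKY18 sites were 84.8% and 44.4%. Sites of both other lines overlapped 27 of 78 WRKY18 members (34.6%), against 40.3% of WRKY18 sites of all classes. For WRKY33 this held for 28 of 56 (50%), against 47.5%, and for WRKY40 for 27 of 100 (27.0%), against 35.5%. The lines of 1 replicate shared a WT library, whose part in these overlaps was not tested, and no test between lines was made on them.

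Of the 131 merged sites, 49 (37.4%) were held by WRKY18 and WRKY40 without WRKY33, and 29 (22.1%) by all 3 lines. WRKY33 alone held 24, WRKY40 alone 21 and WRKY18 alone 4, and the remaining 4 paired WRKY33 with 1 other line. Holding a site means a reproducible site there, and many of the sites of 1 line had a single-library peak of another. Among the 2231 merged sites of other classes, 24.9% were held by 3 lines, 32.8% by 2 and 42.3% by 1. The corresponding shares of the exon and intron sites were 22.1%, 40.5% and 37.4%. At the 25 sites that lay in an exon or intron in all 3 lines, the best rank percentile belonged to WRKY40 at 11, to WRKY33 at 8 and to WRKY18 at 6.

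No peak of another line in any 2 h list overlapped 14 of the 56 WRKY33 members (25%). This was so for 4 of the 100 WRKY40 members and for 0 of the 78 WRKY18 members, which allows a share of up to 4.62% (upper limit of the exact binomial 95% interval). The corresponding shares of other sites were 19.1% for WRKY33, 2.32% for WRKY40 and 1.47% for WRKY18. The 5 best of these WRKY33 sites lay in PP2-A7, a phloem protein gene (17.7 and 21.4), AT2G21500, a RING/U-box gene (25.3 and 14.9), the noncoding RNA gene AT1G78865 (13.7 and 36.4), BT1, a BTB and TAZ domain gene (21.6 and 14.7), and AT3G17090, a putative protein phosphatase 2C gene (17.2 and 17.3), with WRKY33-HA scores in parentheses. The 4 WRKY40 sites lay in AT1G32930, a putative galactosyltransferase gene (23.6 and 23.1), MYB111, a regulator of flavonol synthesis (11.5 and 14.8), ATBFRUCT1, an invertase gene (15.0 and 10.2), and MTO1, which encodes cystathionine gamma-synthase (10.9 and 10.8).

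The 0 h lists were read at the same places to ask which already had a listed peak before flg22. They held 260 and 1843 peaks in WRKY18-HA, 9 and 44 in WRKY33-HA, and 31 (4 nuclear) and 20 in WRKY40-HA. A short list can overlap few sites, so the shares below do not compare binding between lines or replicates. A 0 h peak of WRKY18-HA overlapped 44 of the 78 WRKY18 members (56.4%, exact binomial 95% interval 44.7 to 67.6%), against 63.2% of WRKY18 sites of all classes. For WRKY33 it was 0 of 56, which allows up to 6.38%, against 1.29% of sites of all classes, and for WRKY40 it was 1 of 100, against 0.905%. The members' shares lay near the background of each line.

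The WRKY18 count at 0 h rested on 1 library: 42 of the 78 members had a peak in 0 h replicate 2 and 9 in replicate 1, with 7 in both. Without replicate 2 the share fell to 11.5%. The members with a peak in both 0 h lists included AT5G21105 (29.0 and 63.8), PTR3, AT1G76360 (12.9 and 50.4), AT3G27150 (13.3 and 28.9) and LBD11 (13.1 and 52.1), with 0 h scores in parentheses. At AT5G21105 the 0 h score in replicate 2 was above the 2 h score of the same replicate (47.8), whereas at the other 4 both replicates scored higher at 2 h. The remaining 2 of the 7, named after their values were seen, were AT3G07010 and AT5G66310. AT3G07010, a putative pectate lyase gene, scored higher at 0 h in both replicates (15.6 and 34.1, against 13.7 and 32.0 at 2 h), and AT5G66310 scored higher at 0 h in replicate 2 (28.3 against 25.2). Of the 42 members with a 0 h peak in replicate 2, 34 scored higher at 2 h, and of the 9 in replicate 1, 8 did. Of other WRKY18 sites with a 0 h peak, 78.9% in replicate 2 and 91.9% in replicate 1 scored higher at 2 h.

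Stronger members were more often listed at 0 h. In the best-scoring tercile of all WRKY18 sites, 14 of 16 members had a 0 h peak (87.5%), in the middle tercile 20 of 30 (66.7%), and in the last tercile 10 of 32 (31.2%). The other sites gave 84.1%, 63.1% and 42.4%. The single WRKY40 member with a 0 h peak was AT1G76360, with a score of 11.3 in 0 h replicate 2 and 223 tags against 0 in WT. That peak depended on the replicate 2 library, and without it the WRKY40 count was 0.

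Seen from 0 h, the lists held 13 and 105 exon and intron peaks in WRKY18-HA, 0 and 4 in WRKY33-HA, and 5 and 1 in WRKY40-HA. In WRKY18-HA, 12 of 13 and 89 of 105 overlapped a 2 h peak of the line. The same share of all 0 h peaks was not computed, so these counts have no background beside them. The 4 WRKY33-HA peaks lay in AT3G28370, COBL8, AT3G49810 and FLC, the repressor of flowering, with scores from 10.1 to 11.7, and 1 of them, at AT3G49810, overlapped a 2 h peak. All 5 peaks of WRKY40-HA replicate 1 were annotated to mitochondrial exons and had 98 to 924 tags in WT. No exon or intron peak at 2 h was mitochondrial or plastid.

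Groups of immune genes were looked up among the hosts. Of 37899 nuclear loci in the gene table, 0.198% hosted a reproducible site of WRKY18, 0.148% of WRKY33 and 0.261% of WRKY40. Pattern receptors and their partners (25 genes), plant U-box ubiquitin ligases (22) and the MAP kinase cascade (44) hosted 0 reproducible sites in each line. The same receptor list had sites of any class at 9, 6 and 8 genes in WRKY18, WRKY33 and WRKY40, and the MAP kinase list at 7, 9 and 9. Photosynthesis genes (39), taken as a control group, had 0 sites of any class. The share of all loci with a site of any class was not computed, so the counts of any class have no background beside them. For exon and intron sites the lists are small beside the share of loci that host one, so a count of 0 is close to the background.

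Salicylic acid genes were the group with hosts in all lines: PBS3, described above, and EDS5 (AT4G39030), the transporter that exports the salicylic acid precursor from plastids, 2 of 18 genes. The EDS5 site in intron 1 of 11 scored 12.5 and 17.2 in WRKY18-HA, 10.2 and 11.8 in WRKY33-HA, and 13.1 and 15.9 in WRKY40-HA. WRKY18 and WRKY40 also had a reproducible promoter site at EDS5. ALD1, which makes the precursor of N-hydroxypipecolate, had a peak in intron 4 of 9 in replicate 1 only of WRKY18-HA (28.0) and WRKY40-HA (28.4), and SARD1, a transcription factor gene of this pathway, had one in intron 3 of 6 in replicate 2 only of the same lines, with scores of 10.4 and 13.0. The intron peaks at ALD1 and SARD1 thus appeared in both lines of 1 replicate, which shared a WT library, and in neither line of the other.

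Tryptophan-derived defence compounds had 2 hosts among 17 genes. MYB51 (AT1G18570), an activator of indole glucosinolate synthesis, had a site in exon 3 of 3 with scores of 29.4 and 10.7 in WRKY18-HA and 20.6 and 10.4 in WRKY40-HA, and none listed in WRKY33-HA. CYP79B3 (AT2G22330), which makes indole-3-acetaldoxime from tryptophan, had a site in its only intron with scores of 19.1 and 18.9 in WRKY40-HA, 14.3 in replicate 2 of WRKY18-HA and 10.7 in replicate 2 of WRKY33-HA. No replicate 1 peak was listed there in those lines. Of the ethylene genes, 1 of 22 was a host: ACS2 (AT1G01480), which makes the ethylene precursor ACC, in its last exon, with 12.2 and 13.4 in WRKY18-HA and 17.6 and 20.1 in WRKY40-HA.

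In the calcium and reactive oxygen list ACA11 was 1 host of 25 genes. Its relative ACA4 had an intron 1 peak in replicate 2 only of WRKY18-HA (11.4) and WRKY40-HA (14.5), and RBOHD, the oxidase of the immune oxidative burst, had 1 peak in its last exon in WRKY33-HA replicate 2 (10). Among 225 cytochrome P450 genes, CYP715A1 (AT5G52400) and CYP79B3 were hosts, and CYP715A1 had a pair of sites in introns 2 and 3 of 3. Its intron 3 site scored 18.1 and 23.3 in WRKY18-HA and 23.9 and 29.2 in WRKY40-HA.

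Of 67 WRKY genes, WRKY7 (AT4G24240) was the 1 host of a reproducible site. Its peak, about the border of intron 2 and exon 3 of 3, scored 15.7 and 13.5 in WRKY18-HA and 14.0 and 16.2 in WRKY40-HA. No peak at the WRKY18 and WRKY40 loci was annotated to an exon or intron, in any of the 12 lists. Each peak has 1 class, and a wide one can reach into the gene, such as chr4:15378842-15383957 in WRKY18-HA at 2 h. At WRKY33, a peak in intron 1 of 4 was listed in WRKY33-HA replicate 1, with a score of 10.5 and 116 tags against 11 in WRKY33-HA's WT control, beside a promoter peak of 31.0 in the same list.

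Most host genes had no reproducible promoter site of the same line. A promoter site was present at 10 of 75 host genes for WRKY18 (13.3%), 3 of 56 for WRKY33 (5.36%) and 17 of 99 for WRKY40 (17.2%). The share of all loci with a promoter site was not computed, so whether these shares are high or low cannot be said. Hosts with both included EDS5, ACS2, LOX3 and CYP715A1 in WRKY18 and WRKY40, and AT5G53110 and AAT1 in all 3 lines. LOX3 (AT1G17420) encodes a lipoxygenase of jasmonate synthesis, and its site lay in exon 5 of 8, 2201 bp from the start, with scores of 13.1 and 12.0 in WRKY18-HA and 15.2 and 12.5 in WRKY40-HA. Its relative LOX4 (AT1G72520) had a site in exon 4 of 6, with 19.0 and 16.5 in WRKY18-HA and 23.0 and 26.9 in WRKY40-HA.

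The host was not always the gene the authors assigned, which was named by the nearest start. For 76 of the 842 peaks (9.03%) and 11 of the 131 sites (8.40%) the assigned gene was another one. The LOX4 site was assigned to AT1G72530 at -2226 bp. A site in intron 1 of 6 of ADR1-L1 (AT4G33300), a helper immune receptor gene, was assigned to AT4G33310 at -2000 bp, and scored 15.5 and 33.8 in WRKY18-HA and 17.3 and 37.3 in WRKY40-HA. At BGLU17 (AT2G44480), a beta-glucosidase gene, a site in the last of 12 exons was assigned to the downstream gene PEN2 at -1888 bp. PEN2 is the myrosinase of indole glucosinolate defence, and the site scored 50.2 and 30.5 in WRKY18-HA. WRKY40-HA replicate 1 had a peak of 44.5 at the same place, annotated to the transcript end and so no member. A second BGLU17 site, about intron 8, was assigned to BGLU17 and held by all lines, with scores from 19.9 to 39.8.

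The share of peaks in exons and introns was 6.22% and 5.91% in WRKY18-HA, 4.48% and 5.5% in WRKY33-HA, and 6.59% and 6.11% in WRKY40-HA. Both WRKY33-HA lists were below the other 4, with a mean of 4.99 ± 0.72% (SD, n = 2) against 6.21 ± 0.29% (SD, n = 4). The difference of -1.22 percentage points had p = 0.0667 in an exact two-sided permutation test over the 6 lists, the smallest p that 15 arrangements allow. Without WRKY33-HA replicate 1 the difference was -0.71 points, and among the better-scoring 50% of each list it was -0.79 points (exact p = 0.467). Promoter peaks took 57.7 to 58.1% of the WRKY33-HA lists and 52.6 to 53.7% of the others. The exact binomial 95% intervals of both WRKY33-HA lists (3.53 to 5.59% and 4.66 to 6.43%) overlapped those of the other 4 lists.

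**Figure D3:**
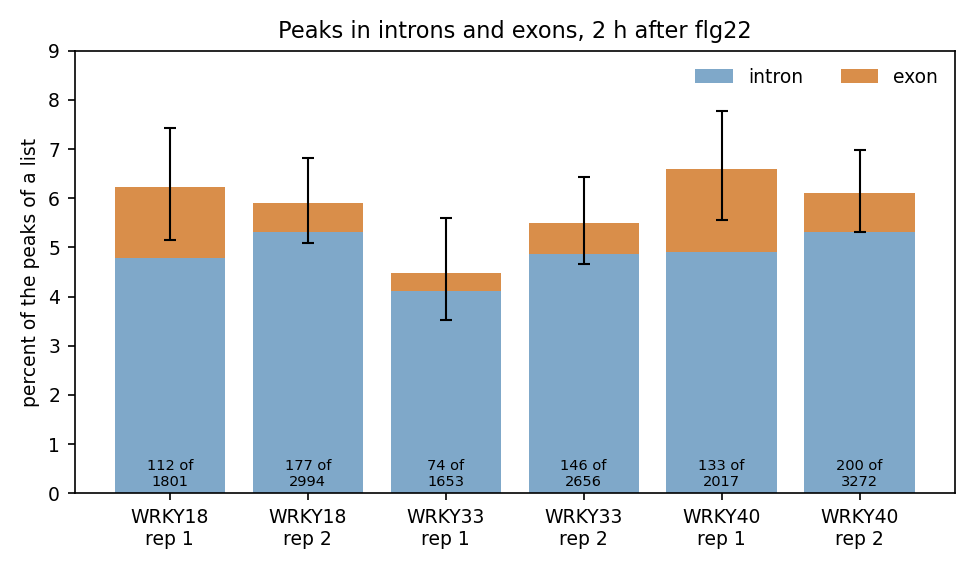
Percent of the peaks of each 2 h list annotated to introns (blue) and exons (orange), stacked, with the exact binomial 95% interval of their sum and the counts at the foot of each bar. The WRKY33-HA bars, at 4.48% and 5.5%, are the lowest, and the orange parts are largest in replicate 1 of WRKY18-HA and WRKY40-HA.

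The exon share among members varied between lines and between replicates. It was 23.2% and 10.2% in WRKY18-HA, 8.11% and 11.6% in WRKY33-HA, and 25.6% and 13.0% in WRKY40-HA. The mean was 9.88 ± 2.50% (SD, n = 2) in WRKY33-HA and 17.99 ± 7.54% (SD, n = 4) in the others, with p = 0.2 in the exact permutation test. Within replicate 1 WRKY33-HA was far below both other lists, and within replicate 2 it lay between them.

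The remaining comparisons set members against the other peaks of the same list, over the 6 lists, by an exact two-sided sign-flip permutation test with Benjamini-Hochberg adjustment over 5 results. The smallest p this test allows is 0.03125. None of the 5 results passed an adjusted p of 0.05. Fold of tags over WT, peak length and overlap with another line each reached the limit of this exact permutation test. Each was lower for members in 6 of 6 lists. At that limit, passing after adjustment depended on the other results. Not passing therefore does not show that members and other peaks were alike. The 6 lists are not fully independent, since many sites recur in them and the lists of 1 replicate share a WT library. Leaving out any library leaves a smallest p of 0.0625, so no result could pass then.

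Neither measure of strength passed the threshold. The members' median scores were 14.0 and 15.3 in WRKY18-HA, 13.3 and 14.4 in WRKY33-HA, and 15.2 and 16.3 in WRKY40-HA, against 16.2 and 15.8, 14.1 and 14.4, and 16.3 and 17.1 for the other peaks. The mean log2 ratio of -0.08 ± 0.07 (SD, n = 6) was negative in 5 of 6 lists (exact p = 0.0625, adjusted p = 0.0781). The deposited fold of tags over WT gave a mean log2 ratio of -0.06 ± 0.05, negative in 6 of 6 lists (exact p = 0.03125, n = 6, adjusted p = 0.0521). The 100 best peaks of a list held 1 to 3 members, while members made up 4.48 to 6.59% of a whole list. The best-placed member ranked 34 to 91. The best score of other peaks ran from 72.3 to 262 per list. That of members, which were only 74 to 200 a list, ran from 30.6 to 96.9. The best other peaks of the WRKY18-HA lists (262 and 209) lay at the WRKY18 locus itself.

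**Figure D4:**
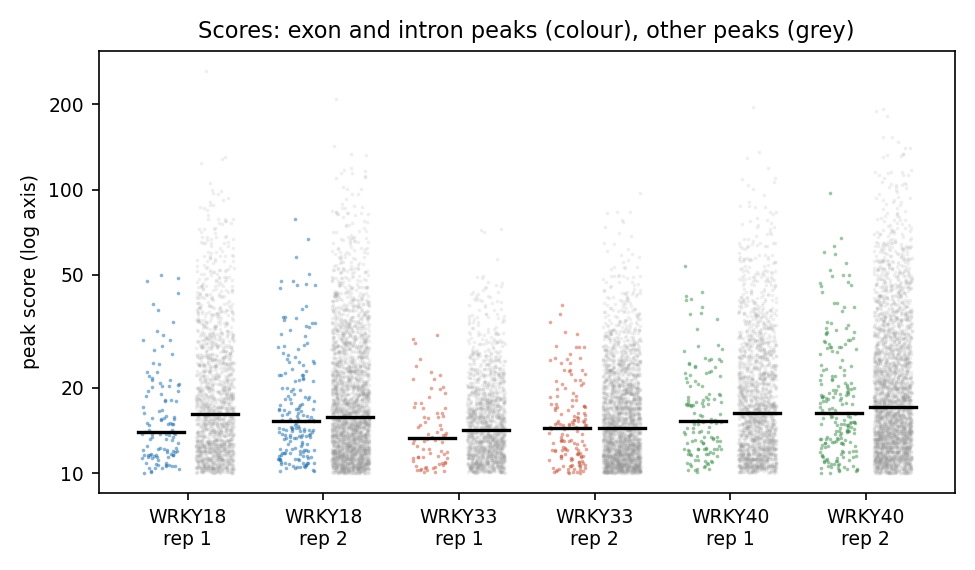
Peak scores on a log axis for the exon and intron peaks (colour) and all other peaks (grey) of each 2 h list, with black bars at the medians. Both kinds start near 10, the medians lie close together, and the members reach at most 96.9.

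Length and sharing between lists did not pass the threshold either. The members' median length averaged 491 bp against 542 bp, a mean log2 ratio of -0.14 ± 0.07 (SD, n = 6; shorter in 6 of 6 lists, exact p = 0.03125, adjusted p = 0.0521). On average 61.4% of members and 65.4% of other peaks of a list were found in the other replicate, a difference of -4.06 ± 4.44 percentage points (SD, n = 6; lower in 5 of 6 lists, exact p = 0.0938, adjusted p = 0.0938). An overlap with another line, taken in lists of the other replicate with its own WT library, was found for 60.4% of members and 67.9% of other peaks. This difference was -7.54 ± 3.8 percentage points (SD, n = 6; lower in 6 of 6 lists, exact p = 0.03125, adjusted p = 0.0521). Among the better-scoring 50% of each list the differences were larger, at -9.79 points for the other replicate and -12.0 points for another line (each exact p = 0.03125, adjusted p = 0.0391). Averaged within terciles of score, the difference for the other replicate was smaller, at -1.46 points (exact p = 0.5), and that for another line was -6.02 points. With lists of the same replicate, which share a WT library, the difference for another line was -2.23 points (exact p = 0.0938).

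**Figure D5:**
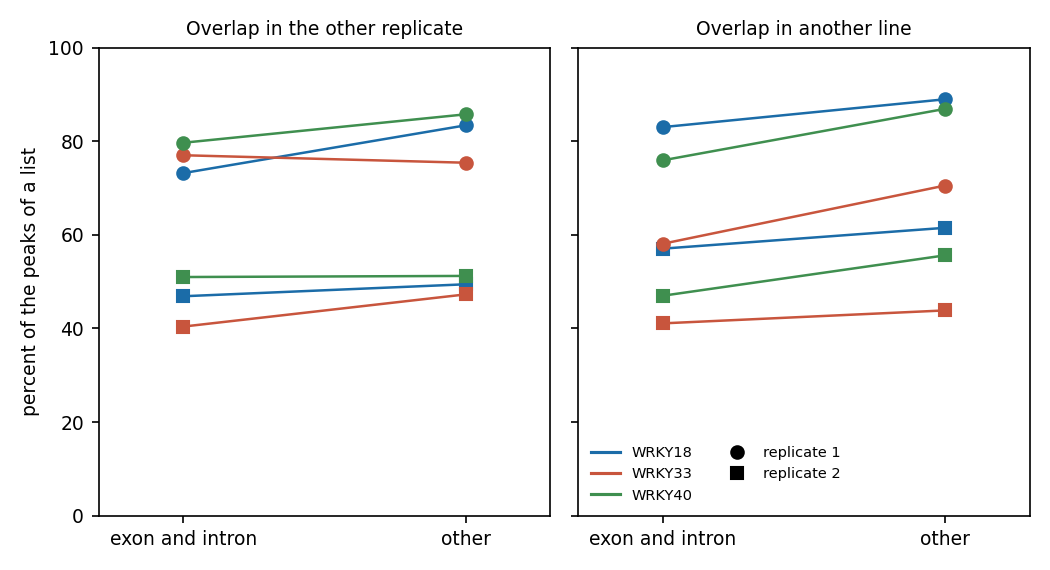
Percent of the peaks of each 2 h list that overlap a peak of the other replicate of the line (left) or of another line in the other replicate (right), for exon and intron peaks and for other peaks, with lists joined by lines. The lines rise towards the other peaks in 5 of 6 lists on the left and in 6 of 6 on the right, and the lists of replicate 1, which are the shorter ones, lie higher.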

How the data were processed

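Anti-HA ChIP-seq was run on 16 samples. The submitters' processing notes name Bowtie 0.12.7, HOMER, cutadapt 1.2.1 and FastQC 0.11.2, and build TAIR10. Which program called peaks, and its threshold, is not given in the sources used here. There is 1 peak list per HA library, 12 in all, with a score, tag counts in HA and WT, the fold ratio of each over WT and a −log10 q-value, per the file headers. The deposited annotation gave the class of each peak, the host gene and its part, and the assigned gene with its distance. The −log10 q-value was not used.

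Members were all peaks annotated as exon or intron at 2 h, and no filter was applied. Peaks overlapped at 1 bp or more, and a reproducible site held peaks of both replicates. Tests were exact permutation tests over lists, checked on simulated data, and intervals are exact binomial (Clopper-Pearson, 95%). The labels give 1 WT library per time and replicate number, and lists with the same number and time are taken to share it. Alternatives were the better-scoring 50%, all chromosomes, members over 500 bp from the start, overlap of 50%, score terciles, same-replicate lists, a replicate block and leaving out libraries. Symbols came from a RefSeq table (TAIR10.1), which held 316 of 318 hosts. No genome sequence was used here, so a planned W-box comparison was not run and 5 results, not 6, were adjusted together. The named sites were the 8 best per line, the 5 best of all lines, the 5 best of 1 line alone, the 5 best with peaks in both 0 h lists, members of 10 gene lists and the loci of the 3 factors; LOX3, LOX4, ADR1-L1, AAT1, COBL8, FLC, AT3G07010, AT5G66310 and the other 0 h peaks were chosen after their values were seen. The members and lists were chosen with earlier results of these data known. Scripts ran in Python 3.11.15 (scipy 1.17.1, pandas 2.3.3, numpy 2.4.6, figures with matplotlib 3.10.9).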

Additional observations from a re-analysis of the deposited data

How the results depend on the processing

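Over all alternatives, 78 recomputed values kept their direction and their side of the threshold or moved less than their error, 4 passed the threshold newly, 6 moved further and 0 reversed. Many of the 78 could not change sides. Every 2 h peak was nuclear, so the values for all chromosomes equal the main ones. Tests with a library left out, and tests between lines, could not pass the threshold. Among the better-scoring 50% of each list, 4 comparisons of members with other peaks passed the threshold (exact sign-flip test, adjusted p = 0.0391 each): score (log2 -0.13), length (log2 -0.30), the other replicate (-9.79 points) and another line (-12.0 points). With the same lists, 84.0% of 25 WRKY18 members had a 0 h peak, and sites of both other lines overlapped 20.0% of WRKY18, 25% of WRKY33 and 10% of WRKY40 members. These shares were not computed for other sites in the shorter lists, so they have no background beside them. In the best-scoring tercile of the full lists, 84.1% of other WRKY18 sites had a 0 h peak. The cause was not tested. Leaving out libraries in turn gave 11.5 to 53.8% of WRKY18 and 0 to 1% of WRKY40 members with a 0 h peak. It gave log2 -0.10 to -0.06 for score, -0.07 to -0.05 for tag fold and -0.17 to -0.13 for length, -5.19 to -2.83 points for the other replicate and -8.50 to -6.56 for another line, and -1.73 to -0.71 points for the share of exon and intron peaks in WRKY33. With the replicate block the share of exon and intron peaks (-1.22 points, WRKY33 against the others) had exact p = 0.111, the smallest of 9 arrangements, and the exon share (-8.11 points) p = 0.222. The W-box comparison and its alternatives were not run. With 2 lists a line, tests between lines cannot pass 0.05.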

Other observations

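Among the 127 hosts, 5 were MYB transcription factor genes, of 115 genes with such a symbol in the gene table (4.35%, against 0.335% of all loci), a group picked after the hosts were seen and therefore not tested. The other 2 beside MYB42, MYB46 and MYB85 were MYB51 and MYB111. The sites of MYB42, MYB46 and MYB85 lay in the only intron of each gene. MYB85 scored 20.7 and 28.3 in WRKY18-HA, 14.3 and 28.1 in WRKY33-HA, and 13.0 and 27.8 in WRKY40-HA. MYB42 was reproducible in WRKY33-HA (11.4 and 20.4), and listed in replicate 2 only of WRKY18-HA (19.6) and WRKY40-HA (21.4).

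AAP5 and AAP6 were 2 of 8 amino acid permease genes with this symbol (25%, against 0.335% of all loci), likewise picked afterwards and not tested. AAP6 scored 20.4 and 21.7 in WRKY18-HA and 22.5 and 26.7 in WRKY40-HA, in intron 2 of 5, with none listed in WRKY33-HA.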
